A study of Rattus norvegicus with 6 samples.

Results

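The miR-148 and miR-152 family was described in rat sertoli cells, the somatic cells that nourish the germ cells of the testis, cultured with or without 4-nonylphenol (4-NP), an alkylphenol with estrogen-like action. The members were every mature miRNA whose name, without its arm, was rno-miR-148a, rno-miR-148b or rno-miR-152 (rno for Rattus norvegicus), which gave 6 of the 734 mature miRNAs counted. These were the 3p and the 5p arm of each of the 3 genes. Small RNA-Seq had been performed on 3 control samples without 4-NP and 3 samples treated with 0.5 mM 4-NP for 24 h. All cultures were primary cells at passage 2, grown in medium with fetal bovine serum and taken from Sprague-Dawley rats 5 to 10 days old, with no genetic change given for either group. The solvent of 4-NP in culture, and whether controls received it, is not given in the sources used here. The cells were enriched by enzyme digestion and centrifugation, so other testicular cells could be present. The sources do not say whether the replicates came from separate animals or cultures, so the p-values measure the spread between these samples, which may be technical.

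A miRNA gene is transcribed as a hairpin, from which the enzymes Drosha and Dicer release a short duplex. Usually one arm of the duplex is kept in an Argonaute protein and the other is degraded, and the kept arm recognizes target mRNAs mainly through bases 2 to 8, called the seed. In this family the 3p arm is the abundant one, and the 3p arms of all members carry the same seed. The family is best known for targeting DNMT1, the methyltransferase that copies DNA methylation onto the new strand after replication, and DNMT3B, a de novo methyltransferase. miR-148a is also known for roles in liver and fat cell differentiation. miR-148b and miR-152 lie within Copz1 and Copz2, genes for the zeta subunits of the COPI vesicle coat. In the RefSeq gene table of the GRCr8 assembly both miRNA genes were on the strand of the host gene, and Mir148a lay within no listed gene.

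The 3p sequences are shown because they define the family and because reads of the paralogs are told apart by few bases. They were taken from RefSeq (GRCr8) and written 5′ to 3′, with the seed in capitals. The assembly behind the counts is not named, and the positions are those of RefSeq.
miR-148a-3p (chr4:81664447-81664467, minus strand): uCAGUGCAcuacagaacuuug
miR-148b-3p (chr7:136299930-136299951, plus strand): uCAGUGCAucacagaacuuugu
miR-152-3p (chr10:82329435-82329455, plus strand): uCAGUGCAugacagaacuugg
No other RefSeq rat miRNA had this seed, which was found in 3 of 693 mature names. Counted from 1 at the 5′ end, miR-148a-3p differed from miR-148b-3p by C9U and U10C, and from miR-152-3p by C9U, U10G and U20G. miR-148b-3p differed from miR-152-3p by C10G and U20G. The first 21 bases were identical at 19 positions for miR-148a-3p and miR-148b-3p, 18 for miR-148a-3p and miR-152-3p, and 19 for miR-148b-3p and miR-152-3p. The number of mismatches allowed in counting is not given in the sources used here, so the division of reads between paralogs is uncertain to that extent. The 5p arms of 2 members were available and are shown because their seeds differ from each other. RefSeq held no sequence of miR-148b-5p, so whether its seed matches either of them is not known here.
miR-148a-5p (chr4:81664483-81664505, minus strand): aAAGUUCUgagacacucugacuc
miR-152-5p (chr10:82329397-82329419, plus strand): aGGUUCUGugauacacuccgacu
Each of these 2 seeds belonged to 1 RefSeq rat miRNA, in a list without miR-148b-5p.

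The samples had 20023200 to 23426742 reads on mature miRNAs. Levels are given as CPM, the reads of a miRNA scaled to a common total of mature reads, on which scale 3 reads, taken as the most that a count of 0 allows, were 0.128 to 0.150 CPM. miR-21-5p held 62.0 to 63.9% of the mature reads in each sample, so all CPM values are shares of a pool that 1 miRNA dominates. The gonadal markers miR-202-5p and miR-202-3p had a summed level of 807 to 1195 CPM in control samples and of 698 to 796 CPM in treated ones, without overlap, and neither of the 2 passed the test. Other marker lists differed between the groups as well. The 2 endothelial miR-126a arms summed to 6325 to 7615 CPM against 3234 to 3805 CPM, and both fell. The 2 smooth muscle or myoid markers summed to 120518 to 136205 CPM against 88367 to 96674 CPM, and 1 of them fell. The 6 germ line or testis X-cluster markers summed to 390 to 520 CPM against 47.6 to 65.9 CPM, with 4 of the 5 tested lower. Most of this sum was miR-741-3p, at 353 to 475 CPM against 44.7 to 63.2 CPM. The 3 erythroid markers summed to 11.0 to 40.3 CPM against 59.1 to 628 CPM, with the 1 tested marker higher. Myeloid, striated muscle and liver markers gave no calls, and summed to 8.05 to 10.5, 14.0 to 19.5 and 0.0427 to 0.538 CPM in the controls and to 8.36 to 14.1, 13.2 to 14.8 and 0.271 to 21.7 CPM after 4-NP. No marker was at 0 in all samples. Of all tested miRNAs 12.8% were called lower and 7.47% higher, and 42.4% had groups without overlap. The part of these cells in the changes below was not tested, and in bulk samples fewer cells of a type and less RNA per cell cannot be told apart.

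Both arms of miR-148a rose after 4-NP, and no other member passed the test. By an adjusted p under 0.05, 2 of 6 members thus rose and 0 fell. Of the 549 miRNAs tested, 20.2% passed by the same rule, 7.47% as higher and 12.8% as lower, from edgeR's quasi-likelihood test with Benjamini-Hochberg adjustment over all of them. The fitted log2 fold change was above 0 for 6 of 6 members, against 49% of all tested miRNAs. Its median was 0.39 over the members and -0.02 over all tested miRNAs. The 6 values are those of the 2 arms of 3 genes, so they are not independent. The members were also chosen with earlier results known. By the thresholds of the study (fold change over 2 or under 0.5, unadjusted p under 0.05), 1 member was higher, miR-148a-5p, and 0 were lower, where 5.83% of all tested miRNAs were higher and 9.84% lower.

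miR-148a-3p, the most abundant member on average, had 12244, 13914 and 11428 reads in control replicates 1, 2 and 3 and 26985, 17650 and 18734 reads in 4-NP replicates 1, 2 and 3. As CPM these were 523, 602 and 513 against 1219, 881 and 856. Every treated sample was above every control, and 4-NP replicate 1 was the highest. The level rose from 546 ± 49.2 to 985 ± 203 CPM (SD, n = 3 each). The log2 fold change was 0.83 (standard error 0.15, 95% interval 0.48 to 1.18), with an adjusted p of 0.00938 in edgeR. Among all mature miRNAs it moved from places 65, 65 and 69 by abundance in the controls to places 40, 49 and 48.

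miR-148a-5p, the opposite arm of the same hairpin, was read 430, 331 and 432 times in control replicates 1 to 3 and 1097, 691 and 979 times in the treated ones. These were 18.4, 14.3 and 19.4 CPM against 49.6, 34.5 and 44.7 CPM. The groups did not overlap. The mean rose from 17.4 ± 2.67 to 42.9 ± 7.69 CPM (SD, n = 3 each), and the log2 fold change was 1.27 (standard error 0.22, 95% interval 0.74 to 1.81, adjusted p = 0.00874 in edgeR). Of the 41 miRNAs that were higher, miR-148a-5p had the 15th largest and miR-148a-3p the 27th largest fold change.

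**Figure D1:**
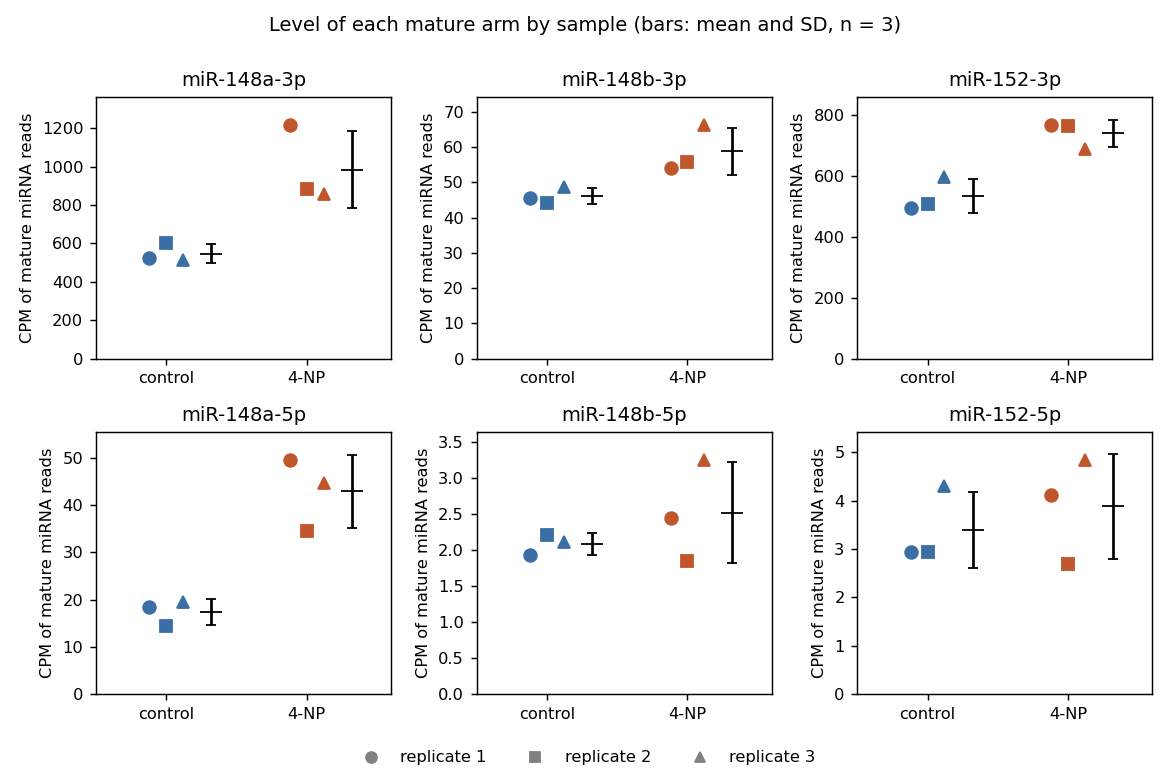
CPM of mature miRNA reads (y axis, from 0) of each arm in the control and 4-NP samples, with 1 point per sample, the replicate by its shape, and black bars for the mean and SD of 3 samples. The treated points of miR-148a-3p, miR-148a-5p, miR-148b-3p and miR-152-3p all lie above the controls, while those of miR-148b-5p and miR-152-5p overlap with them.

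miR-152-3p, whose control level was close to that of miR-148a-3p, did not pass the test. It was read 11638, 11769 and 13350 times in control replicates 1 to 3 and 17032, 15316 and 15093 times in the treated ones. In CPM it was at 497, 510 and 599 against 770, 765 and 689. The groups did not overlap, and control replicate 3 lay closest to the treated samples. Its control mean was 535 ± 55.6 CPM (SD, n = 3) and its treated mean was 1.39 times that. The log2 fold change was 0.44 (standard error 0.14, 95% interval 0.10 to 0.79), with an unadjusted p of 0.0194 and an adjusted p of 0.0768 in edgeR. The result lay near the threshold. The adjusted p was under 0.05 with DESeq2 (0.0103), with edgeR on RLE factors (0.0499), on the plain sum of mature reads (0.0468) or without miR-21-5p (0.0339), and without control replicate 3 (0.0371).

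miR-148b-3p was the least abundant of the seed-sharing arms. It was read 1065, 1019 and 1083 times in control replicates 1 to 3 and 1199, 1116 and 1453 times in the treated ones, or 45.5, 44.1 and 48.6 CPM against 54.2, 55.7 and 66.4 CPM. Here too each treated sample lay above each control, but by a small distance. The means were 46.1 ± 2.29 and 58.8 ± 6.63 CPM (SD, n = 3 each). The log2 fold change was 0.33 (standard error 0.17, 95% interval -0.07 to 0.74, adjusted p = 0.207 in edgeR). The groups did not overlap for 4 of 6 members, all with higher treated samples, where 42.4% of tested miRNAs had no overlap and 19.9% had all treated samples higher.

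The 5p arms of miR-148b and miR-152 were rare. Control replicates 1 to 3 held 45, 51 and 47 reads of miR-148b-5p, and the treated replicates held 54, 37 and 71. For miR-152-5p the reads were 69, 68 and 96 against 91, 54 and 106. In both, 4-NP replicate 2 was the lowest sample and 4-NP replicate 3 the highest. The log2 fold changes were 0.26 (standard error 0.26, 95% interval -0.37 to 0.89) and 0.17 (standard error 0.31, 95% interval -0.56 to 0.91), with adjusted p values of 0.513 and 0.738 in edgeR. These intervals include both a fall and a rise, so no difference was detectable in these samples. Without 4-NP replicate 3 the values were 0.0035 for miR-148b-5p and -0.045 for miR-152-5p. Without 4-NP replicate 2 they were 0.53 and 0.47.

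The seed shared by the 3p arms was carried by 1065, 1156 and 1160 CPM in the controls and 2043, 1702 and 1611 CPM after 4-NP, when the 3 arms were summed. The lowest treated sample was above the highest control, as had to follow, since in each of the 3 arms every treated sample was above every control. The means were 1127 ± 53.8 and 1786 ± 228 CPM (SD, n = 3 each), a ratio of 1.58. The family thus made up 0.106 to 0.116% of the mature reads in the controls and 0.161 to 0.204% after 4-NP. Of the difference between the means, 66.8% came from miR-148a-3p, 31.3% from miR-152-3p and 1.93% from miR-148b-3p. This sum includes members chosen with earlier results known, and it was not tested.

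Within the sum, miR-148a-3p and miR-152-3p were near equal in the controls, and miR-148b-3p was a small part in every sample. miR-148a-3p held 49.1, 52.1 and 44.2% of the 3p reads in control replicates 1 to 3 and 59.7, 51.8 and 53.1% in the treated ones. The exact 95% binomial interval of the first of these was 48.5 to 49.7% and covers counting error only. The shares of miR-152-3p were 46.7, 44.1 and 51.6% against 37.7, 44.9 and 42.8%. Both shares overlapped between the groups, and 4-NP replicate 2 had a smaller miR-148a-3p share than control replicate 2. miR-148b-3p held 4.27, 3.82 and 4.19% against 2.65, 3.27 and 4.12%.

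**Figure D2:**
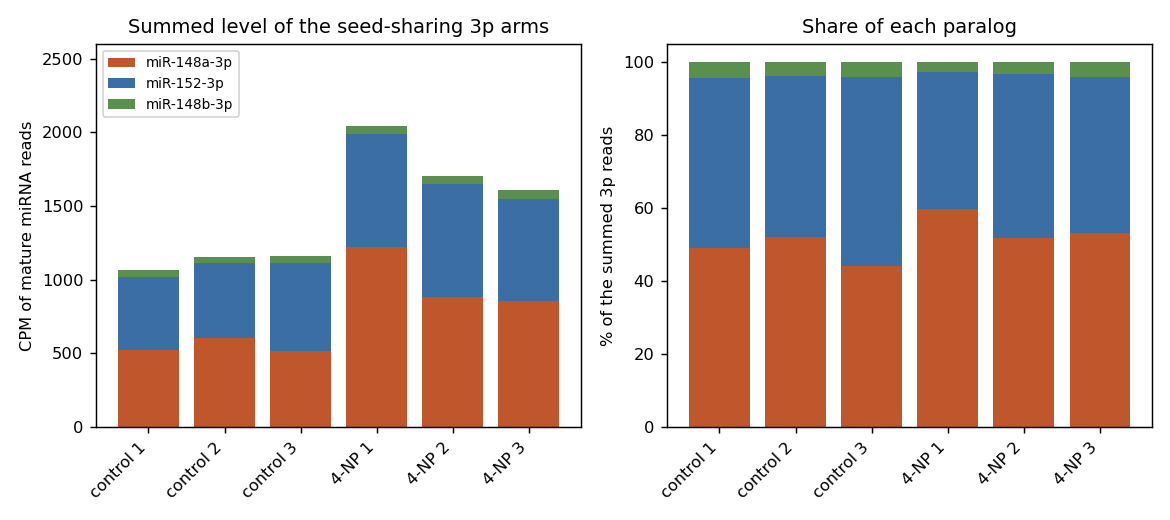
Left, the summed CPM of the 3p arms that share a seed in each sample, stacked by paralog; right, the percent of these reads held by each paralog. The sum lies between 1065 and 1160 CPM in the controls and between 1611 and 2043 CPM after 4-NP, and miR-148b-3p is a thin band in every sample.

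Whether the paralogs and arms changed unequally was asked from ratios of reads within each sample, which need no library size. The comparison used 6 log2 ratios (counts + 0.5), 3 between paralogs and 3 between the arms of a gene, and the two-sided exact permutation test of 3 against 3 samples cannot go below p = 0.1. The log2 ratio of miR-148a-3p over miR-148b-3p was 3.52, 3.77 and 3.40 in control replicates 1 to 3 and 4.49, 3.98 and 3.69 in the treated ones. The mean differed by 0.49 (standard error 0.26, exact permutation p = 0.2, adjusted p = 0.4 over the 6 ratios). The groups overlapped, as 4-NP replicate 3 was below control replicate 2. The ratio of miR-148a-3p over miR-152-3p differed by 0.36 (standard error 0.19, exact permutation p = 0.2), and that of miR-148b-3p over miR-152-3p by -0.13 (standard error 0.15, exact permutation p = 0.4). Without 4-NP replicate 1 the difference for miR-148a-3p over miR-148b-3p was 0.27, and without the same sample that for miR-148a-3p over miR-152-3p was 0.23, and 0.24 without control replicate 3. For miR-148b-3p over miR-152-3p, leaving out 1 sample gave -0.27 (without 4-NP replicate 3) to -0.043 (without 4-NP replicate 1). Among the 3p arms the change of miR-148a-3p alone passed the test, but with 3 samples a group it was not shown to differ from the changes of its paralogs.

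Between the arms, the 3p reads outnumbered the 5p reads in all genes and samples, by 19.1 to 42.0 times for miR-148a, 19.8 to 29.8 times for miR-148b and 138 to 281 times for miR-152. miR-152 had the largest ratio in every sample. For miR-148a the ratio was 28.4, 42.0 and 26.4 in the controls and 24.6, 25.5 and 19.1 after 4-NP. It was lower in every treated sample than in any control. On the log2 scale the difference was -0.46 (standard error 0.24, exact permutation p = 0.1, the smallest possible, and adjusted p = 0.4 over the 6 ratios). Control replicate 2 was the highest, and without it the difference was -0.26. The ratios of the arms of miR-148b and miR-152 overlapped between the groups, with differences of 0.11 (standard error 0.18, exact permutation p = 0.8) and 0.30 (standard error 0.30, exact permutation p = 0.4). For miR-152 the difference was 0.035 without 4-NP replicate 2 and 0.53 without 4-NP replicate 3. For miR-148b it was -0.053 without 4-NP replicate 2, 0.037 without control replicate 2 and 0.22 without 4-NP replicate 3.

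**Figure D3:**
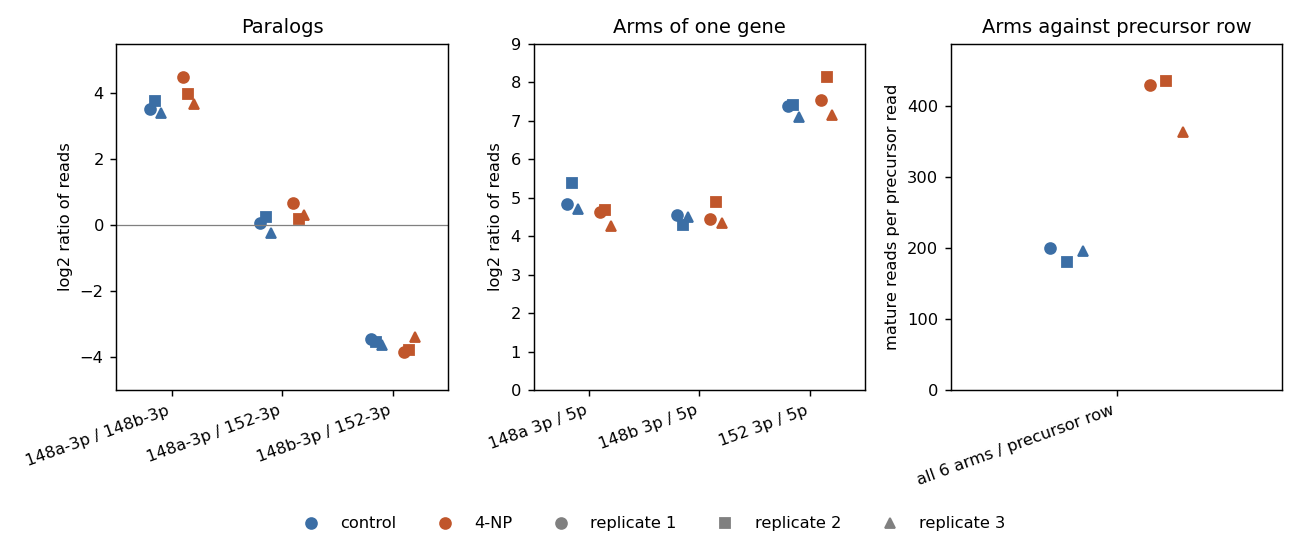
Log2 ratios of reads between the seed-sharing 3p arms (left) and between the 3p and 5p arm of each gene (middle), and reads on all 6 arms per read on the precursor family (right, linear axis from 0), with blue points for control and orange points for 4-NP samples and the replicate by its shape. The groups overlap in all paralog ratios, while mature reads per precursor read are 181 to 201 in the controls and 364 to 436 after 4-NP.

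The table also held 1 row for reads assigned to the mir-148/mir-152 precursor family of Rfam, in which the 3 genes are not told apart. Control replicates 1 to 3 held 127, 150 and 135 such reads, and treated replicates 108, 80 and 100. On the scale of mature CPM these were 5.42, 6.49 and 6.06 against 4.88, 4.00 and 4.57. The precursor row was thus lower in every treated sample, the opposite of the direction of the miR-148a arms. Groups without overlap were common, at 42.4% of tested mature miRNAs, a share not computed for the other rows. On the scaling of the mature miRNAs, edgeR gave the precursor row a log2 fold change of -0.43 (standard error 0.19). Its adjusted p in edgeR was 0.148 over 738 rows other than mature miRNAs. Of these rows 7.86% were called lower and 14.9% higher. With TMM factors from those rows themselves edgeR gave -0.83 (standard error 0.17, adjusted p = 0.0193). The median log2 fold change of the rows tested was 0.46 on the first scaling and 0.06 on the second. Relative to that median, the precursor row was at -0.90 and -0.89. A ratio added after the values were seen compared reads on all 6 arms with reads on the precursor row. It was 201, 181 and 196 in the controls and 430, 436 and 364 after 4-NP. The log2 difference was 1.09. Since the arms and the precursor row were already seen to lie apart in opposite directions, the ratio had to separate the groups, and it is a description with no test. Small RNA was cut out after electrophoresis, so these reads cannot be taken as counts of whole precursors. Which stretch they cover is not given, and they are few beside the mature reads.

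A fixed list of other miRNAs known to target DNA methyltransferases, not meant to hold all of them, was set beside the family. This list held the 3p arms of miR-29a, miR-29b and miR-29c, miR-101a and miR-101b, miR-143-3p, miR-126a-3p, miR-185-5p and miR-342-3p. Of its 9 members, 0 rose and 2 fell by the edgeR rule above, where 7.47% of all tested miRNAs rose and 12.8% fell, 20.2% in all. The median log2 fold change was 0.31 over the list against -0.02 over all tested miRNAs. miR-126a-3p, which is also an endothelial marker, fell from 6747 ± 671 to 3367 ± 312 CPM (SD, n = 3 each), which was -1.02 on the log2 scale with an adjusted p of 0.00419 in edgeR (standard error 0.15). miR-143-3p, also a smooth muscle marker, fell from 123969 ± 8633 to 89443 ± 4588 CPM (SD, n = 3 each), which was -0.50 on the log2 scale with an adjusted p of 0.0177 in edgeR (standard error 0.10). For the other 7 the log2 fold changes lay between 0.15 and 0.42 and did not pass the test. Without 4-NP replicate 1 the value was 0.076 for miR-101a-3p in place of 0.30, 0.13 for miR-29b-3p in place of 0.40, 0.22 for miR-29c-3p in place of 0.42 and 0.097 for miR-29a-3p in place of 0.15. Without 4-NP replicate 2 it was 0.52 for miR-101a-3p, 0.67 for miR-29b-3p and 0.65 for miR-29c-3p. Without 4-NP replicate 3 it was 0.23 for miR-29a-3p. In miR-185-5p control replicate 1 stood apart, at 15.0 CPM where the other samples had 53.2 to 59.2 CPM, and without it the log2 fold change was -0.085 in place of 0.31. The largest fold change of the 7 was that of miR-342-3p, which targets DNMT1 (0.42, standard error 0.17, unadjusted p = 0.0429, adjusted p = 0.127 in edgeR). For miR-29a-3p, the most abundant of the miR-29 family that targets DNMT3A and DNMT3B, it was 0.15 (95% interval -0.11 to 0.40).

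The miR-130 and miR-301 family was chosen for the start of its sequence, and no search for the nearest family was made. RefSeq held 3 of its 4 members, all but miR-301a-3p. These 3 begin with the 7 bases that form the seed of miR-148a-3p, but 1 base earlier, so that their own seed is shifted. Of the 3, 1 is shown for the shift.
miR-130a-3p (chr3:90229240-90229261, minus strand): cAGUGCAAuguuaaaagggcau
Of the 4 members of this family, 0 were called in either direction, where 20.2% of all tested miRNAs were called. For miR-130a-3p the control level was 775 ± 65.5 CPM (SD, n = 3), and the log2 fold change was 0.01 with a 95% interval of -0.49 to 0.52. For miR-301a-3p it was 0.03 with a 95% interval of -0.33 to 0.39. The sign of both values turned in some alternatives, and neither passed in any. The other 2 members were rare, with means under 2 CPM in both groups. Their log2 fold changes were larger, at 0.59 for miR-130b-3p (95% interval -0.24 to 1.43) and 0.84 for miR-301b-3p (-0.12 to 1.81). All treated samples of miR-301b-3p were above the controls, as in 19.9% of tested miRNAs. The fitted value was above 0 for 4 of 4 members, against 49% of all tested miRNAs. The median was 0.31 over the 4 and -0.02 over all tested miRNAs.

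**Figure D4:**
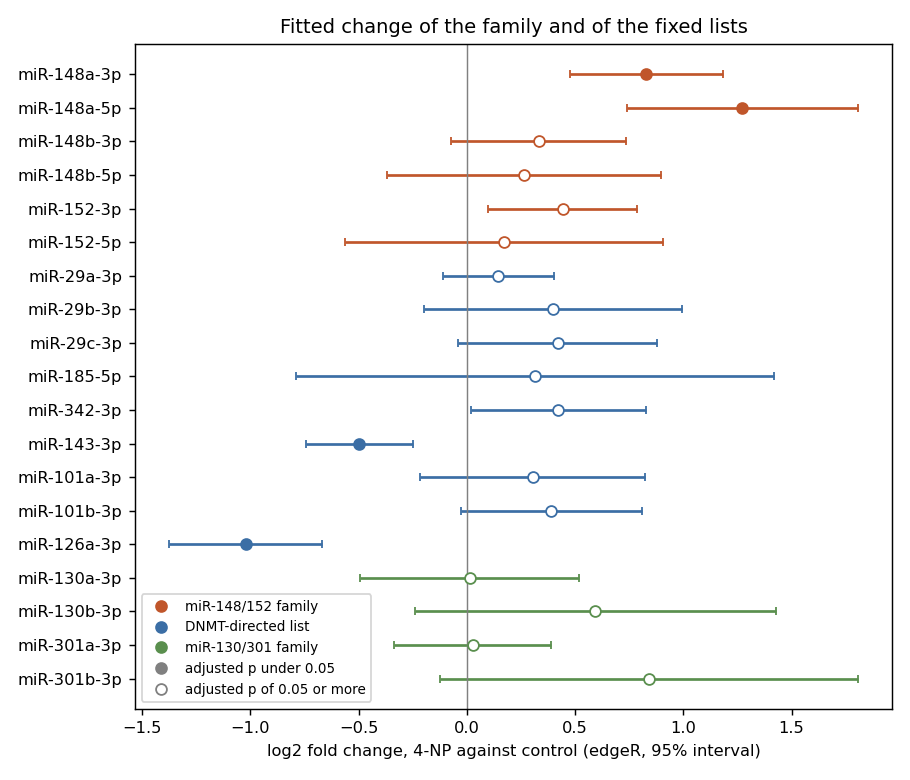
Log2 fold change of 4-NP against control from edgeR (x axis) with its 95% interval. Shown are the 6 members, the 9 listed miRNAs known to target DNA methyltransferases and the 4 of the miR-130 and miR-301 family. Points are filled where the adjusted p over 549 miRNAs was under 0.05. Only the miR-148a arms are filled to the right of 0 (0.83 and 1.27), and miR-143-3p and miR-126a-3p are filled to the left (-0.50 and -1.02).

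The miRNAs whose levels followed miR-148a-3p most closely were sought by Pearson's r of log2(CPM + 1) over the 6 samples. The 5 closest of 548 were miR-361-5p (r = 0.976), miR-532-5p (0.972), miR-20a-5p (0.970), miR-181c-5p (0.968) and miR-101a-5p (0.95). They share the libraries and the difference between the groups with miR-148a-3p, and no p was computed. The groups did not overlap in any of the 5, nor in 42.4% of all tested miRNAs. The 5 were picked by likeness to a miRNA whose groups do not overlap, so this is no result about them. Their log2 fold changes were 0.19 to 0.79. Only miR-361-5p (0.53, adjusted p = 0.0294) and miR-20a-5p (0.52, adjusted p = 0.0291) passed the test in edgeR. Both calls were lost in several of the fits that left out 1 sample, with adjusted p values of up to 0.101 for miR-361-5p and 0.081 for miR-20a-5p, each without control replicate 2. miR-101a-5p passed without 4-NP replicate 2 (adjusted p = 0.041 in edgeR). Among the family itself, miR-148a-5p was at place 29 of 548 (r = 0.901) and miR-152-3p at place 51 (r = 0.866). miR-148b-3p was at place 131 (r = 0.659), and r was 0.401 for miR-148b-5p and 0.245 for miR-152-5p.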

How the data were processed

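Small RNA was sequenced from 3 control samples and 3 samples treated with 4-NP. According to the labels, small RNA was cut out after electrophoresis, joined to adapters that carry molecular identifiers and amplified by PCR. The authors deposited 1 table with the read counts of each small RNA per sample, without normalization. The submitters' processing notes list HISAT2 and DESeq2, and the paper names FastQC and edgeR for competing endogenous RNAs. The miRNA database, the genome build and the counting rule are not given in the sources used here. The deposited UMI columns hold the value 1 for all 6 members in every sample and were not used. Reads were thus not collapsed to molecules, and the floor of 3 reads and the binomial interval of a share cover counting error only. The intervals of fold changes come from edgeR and include the spread between samples. Columns named NP were taken as the treated samples of the same number, and 0 columns stayed unmapped.

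Among its 2363 rows, 734 are mature miRNAs, 61 of them predicted by the authors. Another 4 rows are genome totals that name no RNA, and these, 3.52 to 5.91% of the reads, were left out. In R 4.3.3, counts of all mature miRNAs were scaled by TMM and tested with the quasi-likelihood F test of edgeR 4.0.16, two-sided and without a replicate block, after filterByExpr (549 miRNAs). The standard error is the fold change divided by the root of F. Adjusted p values are over all tested miRNAs. CPM are of the sum of mature counts. Precursor reads were tested over 738 rows with the effective library sizes of the mature miRNAs. Alternatives used limma 3.58.1, DESeq2 1.42.0, other scalings, filters and samples. Python 3.11.15 and SciPy 1.17.1 gave the exact tests. The fit was tested on simulated data. Named miRNAs are all members, the lists above, miR-21-5p and the 5 miRNAs closest to miR-148a-3p. Members and lists were chosen with earlier results of these data known.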

Additional observations from a re-analysis of the deposited data

How the results depend on the processing

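The rises of miR-148a-3p (log2 fold change 0.69 to 0.99) and miR-148a-5p (1.10 to 1.50) kept their direction and an adjusted p under 0.05 in all 16 alternatives of each, at most 0.0354 and 0.0316. miR-148b-3p and miR-148b-5p passed in none of their 16. miR-152-3p passed in 5 of 16, with log2 fold changes of 0.48 on RLE factors, 0.47 on the plain sum of mature counts, 0.51 without miR-21-5p and 0.48 with DESeq2, and it ran from 0.35 to 0.55 when each sample was left out, passing without control replicate 3. Leaving out 1 sample gave -0.045 to 0.47 for miR-152-5p, with the sign turned without 4-NP replicate 3, and -0.053 to 0.22 for the log2 ratio of miR-148b-3p over miR-148b-5p, turned without 4-NP replicate 2. For the precursor row, TMM factors of its own rows gave -0.83 and DESeq2, added after seeing the data, gave -0.82, both past the threshold. The fits of this row without each sample in turn kept the scaling of the mature miRNAs. On that scaling all samples gave -0.43, which did not pass either. These fits gave -0.49 to -0.35 and did not pass. The 2 settings that passed were not refitted without a sample. The causes were not tested.

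Same-numbered samples did not deviate together (r = -0.30, -0.26 and -0.02), so the numbers were not taken to pair them. A replicate block gave 26 higher miRNAs in place of 41 and 1 called DNMT-directed miRNA in place of 2, as miR-143-3p had an adjusted p of 0.0699 in that edgeR fit. It gave 0.82 for miR-148a-3p and 1.28 for miR-148a-5p and changed no call of a member. Outside the family it also ended the calls of miR-361-5p (0.53, adjusted p = 0.0643) and miR-20a-5p (0.52, adjusted p = 0.063) in edgeR. The value of miR-130a-3p was -0.00088 with the block, -0.00075 and -0.00077 in limma with pseudocounts of 1 and 0.1, and -0.025 with at least 10 reads in every sample, where miR-301a-3p was at -0.0097. Leaving out each sample gave -0.14 to 0.26 for miR-130a-3p, -0.069 to 0.17 for miR-301a-3p and -0.085 to 0.61 for miR-185-5p. Of 551 alternative values, 519 kept their direction and side of the threshold, or for a count or a level stayed near the reported value. For counts this rule was wide. By it 80 to 130 called miRNAs all counted as near the reported 111, and 3 called members as near 2. The exact test of 3 against 3 samples limits the ratios.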
